A study of Mus musculus with 384 samples.

Results

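The genes described here encode secreted growth factors and 1 vasoactive peptide: Csf1, Csf2, Csf3, Vegfa, Hbegf, Edn1, Lif and Pdgfb. They were chosen by name, with earlier results of these data known, as secreted mitogens, survival factors and an endothelin. They are 8 of the 23481 genes of the table and not all of its growth factors. All 8 had counts, and 6 of them (Csf1, Csf2, Vegfa, Hbegf, Edn1 and Pdgfb) passed the filter on low counts that left 10562 genes to test. Csf3 and Lif did not pass it and are described by their counts alone. The cells were bone-marrow-derived macrophages of C57BL/6 males aged 13 weeks, either wild type (WT) or Myd88 knockout (KO). Every group, controls included, had been grown with the supplement CMG, transduced with pooled virus that carried pathway reporters, and replated before use. A well then received Pam3Cys, FLA, Poly(I:C), LPS, R848, CpG, MDP, MDP with LPS (MDP/LPS), TDB, SeV, Zymosan or HT-DNA and was lysed after 0, 0.5, 1, 1.5, 2, 2.5, 3 or 4 h. There were 2 plates of 96 wells for each genotype (replicates 1 and 2), every combination of ligand and time had a single well on each plate, and 384 wells were counted. Whether the 2 plates of a genotype hold separate animals or cultures is not stated, and the p-values then measure only the spread between plates, which may be technical. No well was left without ligand after time 0. Time in culture and ligand therefore cannot be told apart in any change from time 0. Each plate held 1 genotype, so genotype cannot be told apart from culture or handling shared by the plates of a genotype.

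Colony-stimulating factors keep myeloid cells alive and direct their growth: CSF1 acts on macrophages and their precursors, CSF2 (GM-CSF) on granulocytes, macrophages and dendritic cells, and CSF3 (G-CSF) on neutrophils. VEGFA acts on endothelial cells, PDGFB on pericytes and other mesenchymal cells, HBEGF on the epidermal growth factor receptor after it is shed from the cell surface, and LIF on cells with the LIF receptor and gp130. EDN1 is the precursor of endothelin-1, a peptide that constricts vessels and is cut out by furin-like and endothelin-converting enzymes. Macrophages are a known source of several of these factors when Toll-like receptors are engaged. MYD88 is the adaptor of the interleukin-1 receptor and of most Toll-like receptors, whereas the receptor for double-stranded RNA signals through TRIF and the LPS receptor through both adaptors. Pam3Cys is a synthetic bacterial lipopeptide, R848 an imidazoquinoline, CpG a bacterial-type DNA, MDP a fragment of bacterial cell wall, Poly(I:C) a synthetic double-stranded RNA and Zymosan a preparation of yeast cell wall. FLA, TDB, SeV and HT-DNA are given as the labels spell them.

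The RefSeq table (GRCm38.p6, 250 bases before to 50 after each start) gave 6 promoter sequences of 5 of the 8 genes: 1 each for Csf1, Csf2, Edn1 and Lif, and 2 for Vegfa. The promoters of Csf1 and Edn1 are shown because their transcripts had the largest numbers of called rises among the members. The Csf1 promoter lies at chr3:107760420-107760719 on the minus strand, and its capitals mark a match to the NF-kB motif, searched on both strands and given here by its name alone; the match begins 154 bases before the start. Edn1 has its promoter at chr13:42301226-42301525 on the plus strand, and the capitals there mark CACGT, the reverse complement of the searched motif ACGTG, beginning 22 bases after the start. The third line is a stretch of the Csf2 3′ UTR, shown because Csf2 was the only member with more than 2 overlapping copies of the AU-rich element ATTTA in a row.
Csf1 promoter: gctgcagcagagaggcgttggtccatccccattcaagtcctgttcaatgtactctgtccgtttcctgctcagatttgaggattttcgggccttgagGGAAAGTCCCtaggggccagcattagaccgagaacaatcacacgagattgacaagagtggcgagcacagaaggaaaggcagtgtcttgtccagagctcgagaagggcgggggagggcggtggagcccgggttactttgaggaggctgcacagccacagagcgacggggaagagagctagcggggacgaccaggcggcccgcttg
Edn1 promoter: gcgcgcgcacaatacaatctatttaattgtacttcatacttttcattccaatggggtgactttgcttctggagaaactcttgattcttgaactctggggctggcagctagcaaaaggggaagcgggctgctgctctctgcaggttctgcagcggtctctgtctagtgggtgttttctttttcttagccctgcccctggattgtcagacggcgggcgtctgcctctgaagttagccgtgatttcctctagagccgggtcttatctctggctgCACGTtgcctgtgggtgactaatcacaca
Csf2 3′ UTR stretch: aaatATTTATTTATTTATTTATTTAtttt
The capitals of the third line mark 5 overlapping copies of ATTTA, a kind of element known for its part in the rapid decay of cytokine messages. The Csf2 3′ UTR of 317 bases held 9 copies of ATTTA, and 0.167% of 20964 genes with a 3′ UTR had 5 or more overlapping copies in a row. Of 32851 RefSeq promoters of this length, 4.51% held the NF-kB match, 19.6% held ACGTG and 7.81% held TGANTCA, the AP-1 site; no match overlapped another in the members' promoters. The Csf2 window (chr11:54249850-54250149, minus strand) lies wholly before the GENCODE start of the gene at 54249667 and does not cover that start. The second Vegfa window (chr17:46025114-46025413) lies inside the GENCODE gene. Among the other members, the Lif promoter held TGANTCA. The first of the Vegfa promoters in the table held an NF-kB match and the second held ACGTG. The Csf2 window held none of the 3 motifs. These matches are descriptions of sequence only.

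Wells held 71720 to 767167 counts, with a median of 342561. Plate totals were 37323548 and 31280223 in WT replicates 1 and 2, and 32320373 and 29737092 in KO replicates 1 and 2. Wells of a plate were summed over the 12 wells of time 0 and, for each ligand, over 0.5 and 1 h (early), 1.5 and 2 h (middle) and 2.5, 3 and 4 h (late), and levels are given as CPM, the counts of a gene scaled to a fixed total of such a sum. Counts measure the 3′ ends of transcripts, so no level is compared between genes. Myd88 itself stood at 45.9 and 47.7 CPM in the WT plates and at 15.1 and 18.2 CPM in the KO plates, with a count in 82 and 76 of 96 KO wells; the tag may lie outside the deleted part, and the level is then no check of the deletion. The macrophage markers, of which 8 of 9 had counts, summed to 3380 to 3750 CPM at time 0 in the 4 plates. Neutrophil markers summed to 119 to 197 CPM with Ly6g at 0, endothelial markers to 38.8 to 52.3 CPM, most of it Kdr, with Tek at 0, and fibroblast markers to 0.0 to 2.21 CPM with Col3a1 and Lum at 0. Over the late groups these sums ranged from 87.1 to 221 CPM for neutrophil, from 18.7 to 123 CPM for endothelial and from 0.0 to 4.21 CPM for fibroblast markers; their part in the changes below was not tested. In such bulk wells, fewer cells of a type and less RNA per cell cannot be told apart. The R848 wells of KO replicate 2 were shallow, with a mean of 102253 counts, which limits every KO value for that ligand.

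Before ligand, Edn1 was the only member called between the genotypes. Its level at time 0 was 19.2 and 35.0 CPM in the WT plates and 0.639 and 0.0 CPM in the KO plates, 205 against 3 counts over the time 0 wells of both plates. Both WT plates lay above both KO plates, but this was also so for Csf1, Hbegf and Vegfa, which were not called. The share of all genes with such a separation was not determined. For Edn1 the ratio of WT to KO was 73.1 with an exact 95% counting interval of 24.7 to 357. Such intervals cover counting error only. With edgeR's quasi-likelihood test the difference had an adjusted p of 0.000127, and it was the single call among the 6 members tested, where 0.275% of all genes tested were called lower in KO. It was not called without WT replicate 1 (adjusted p = 0.141) or without WT replicate 2 (adjusted p = 0.803), and was called without either KO plate. Csf1, the macrophage growth factor, read 36.9 and 39.8 CPM in WT and 21.3 and 12.7 CPM in KO, and its difference of -1.19 on the log2 scale (SE 0.58) had an unadjusted p of 0.0456 and an adjusted p of 1 in edgeR. Hbegf read 24.7 and 20.2 CPM in WT and 14.7 and 9.39 CPM in KO, again without a call. Vegfa stood at 108.7 and 75.8 CPM in WT and at 71.2 and 71.6 CPM in KO, and Pdgfb at 7.55 and 12.9 CPM in WT and 10.2 and 8.88 CPM in KO, so that the plates of the genotypes overlapped for Pdgfb and lay close for Vegfa. Over whole plates, the counts of WT replicates 1 and 2 and KO replicates 1 and 2 were 4644, 5029, 1390 and 1234 for Csf1, and 4569, 4922, 91 and 84 for Edn1. The same plates gave 3441, 2408, 2139 and 1909 counts of Vegfa and 1972, 1673, 709 and 641 counts of Hbegf. Pdgfb had 731, 786, 496 and 501 counts, Csf2 127, 112, 18 and 24.

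Across the 12 ligands, the 6 tested members form 72 pairs of member and ligand in each time class and genotype. In WT, 4 of 72 pairs rose against time 0 early, where 0.275% of all gene and ligand pairs were called higher. Middle wells had 13 of 72 (0.806% of all pairs) and late wells 15 of 72 (2.09% of all pairs). In KO the counts were 1 of 72 early (0.164% of all pairs), 8 of 72 in the middle class (0.6% of all pairs) and 8 of 72 late (1.58% of all pairs). The median log2 change of the WT pairs was 0.594 early, 1.08 in the middle class and 0.647 late, against -0.029, -0.055 and -0.048 over all genes tested. In KO the medians were 0.454, 0.061 and 0.339. The members were chosen with earlier results of these data known, so setting their shares beside those of all pairs is no test. The members were called at different times: all 4 early WT calls were Hbegf, the middle calls were 7 for Csf1, 3 for Edn1, 2 for Hbegf and 1 for Pdgfb, and the late calls were 7 for Csf1, 5 for Edn1, 2 for Pdgfb and 1 for Hbegf. When 1 WT plate was left out, each WT group was a single sum and its spread was taken from the KO plates; the late WT calls then numbered 0 without WT replicate 1 and 1 without WT replicate 2. Leaving out either KO plate gave 19 late WT calls, which held the 15 reported. The late KO calls numbered 5 without either WT plate, and leaving out KO replicate 1 or 2 gave 5 and 3. When a group was set against its own ligand's time 0 wells, 1 on each plate, in place of all 12, the WT calls numbered 1 early, 8 in the middle class and 11 late, and the KO calls 1, 1 and 2.

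**Figure D1:**
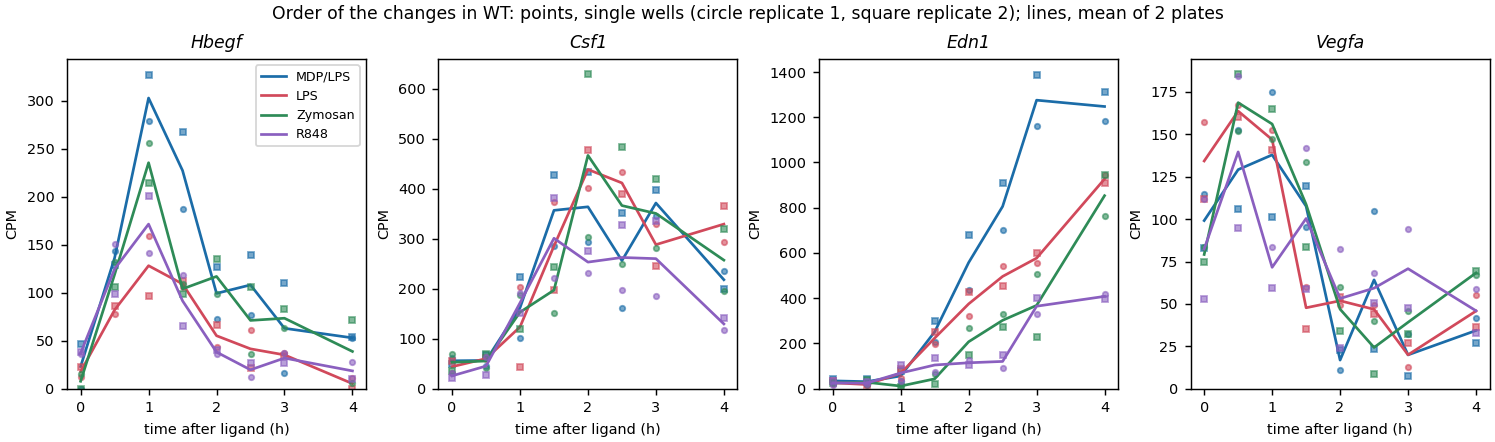
CPM of Hbegf, Csf1, Edn1 and Vegfa against time after ligand (h) in WT wells given MDP/LPS, LPS, Zymosan or R848; points are single wells, with circles for replicate 1 and squares for replicate 2, and lines are the mean of the 2 plates. Hbegf peaked at 1 h, where MDP/LPS wells read 278.4 and 326.8 CPM, whereas Edn1 was highest at 3 or 4 h, with 1163 and 1388 CPM at 3 h in MDP/LPS.

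The time of onset was not compared between members. Hbegf, the shed ligand of the epidermal growth factor receptor (chromosome 18, 36504927 to 36515805, minus strand, mm10), had every early call of a rise. In early WT wells it stood at 200.8 and 242.9 CPM with MDP/LPS, against 24.7 and 20.2 CPM at time 0, a log2 change of 3.41 (SE 0.65, 95% interval 2.12 to 4.70, edgeR adjusted p = 0.000307). Both plates lay far above both time 0 sums. Zymosan gave 183.9 and 157.8 CPM (log2 change 2.97, adjusted p = 0.00414), R848 145.4 and 154.7 CPM (2.81, adjusted p = 0.00825) and CpG 177 and 65.0 CPM (2.51, adjusted p = 0.0337) by the same edgeR test. LPS alone gave 120.1 and 90.8 CPM and missed the threshold (log2 change 2.34, edgeR adjusted p = 0.073; DESeq2 adjusted p = 0.0251). Pam3Cys gave 149.1 CPM in replicate 1 and 13.1 CPM in replicate 2, and this pair had no call (adjusted p = 0.3) and turned to -0.48 without WT replicate 1. Middle WT wells read 122.7 and 194.8 CPM with MDP/LPS (log2 change 2.99, edgeR adjusted p = 0.00121) and 103.5 and 118.3 CPM with Zymosan (2.44, adjusted p = 0.0162). Late wells were called for MDP/LPS alone, at 47.2 and 103.9 CPM (2.10, adjusted p = 0.024). Late against early, added after the data were seen, WT Hbegf was called lower for R848 and CpG, and not for MDP/LPS or Zymosan. Neither of those calls was made in the fit with own time 0 wells (edgeR adjusted p = 0.124 and 0.19). Of the 4 ligands called early, the mean of the single wells was highest at 1 h for MDP/LPS, Zymosan (256.1 and 214.4 CPM) and R848 (141.6 and 201.1 CPM), and at 0.5 h for CpG, where the plates stood far apart at 216.3 and 49.1 CPM. Against own time 0 wells Zymosan alone was called early (MDP/LPS had a log2 change of 3.33 and an edgeR adjusted p of 0.0738), and neither MDP/LPS call of the later classes was made.

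In KO wells Hbegf kept 1 early call, for MDP/LPS, at 147.5 and 89.9 CPM against 14.7 and 9.39 CPM at time 0. Its log2 change there was 3.39 (SE 0.67, 95% interval 2.07 to 4.71, edgeR adjusted p = 0.000427), and it was called without each of the 4 plates in turn, with adjusted p from 0.000226 to 0.0221. The KO wells of MDP/LPS reached 251.8 and 104.2 CPM at 1 h. Their middle sums read 67.8 and 44.2 CPM (log2 change 2.32, edgeR adjusted p = 0.0445), a call lost without each of the 4 plates and with own time 0 wells. LPS alone in early KO wells gave 62.3 and 10.5 CPM, a wide spread between plates and no call (adjusted p = 0.495). MDP/LPS was compared with LPS after the data were seen: the log2 difference of Hbegf was 1.07 early in WT (SE 0.61, 95% interval -0.15 to 2.28), 1.63 late in WT (0.34 to 2.93) and 1.60 early in KO (0.27 to 2.93), each with an edgeR adjusted p of 0.505 or above. None of the members was called in that comparison over 3 time classes and both genotypes, where 0.0126% of all pairs were called higher. The early WT call for MDP/LPS was lost without WT replicate 1 (log2 change 3.64, adjusted p = 0.706) and without WT replicate 2 (3.15, adjusted p = 1).

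Csf1, on chromosome 3 from 107741048 to 107760469 on the minus strand (mm10), rose in the largest number of ligands. Its early WT changes ran from -0.20 to 1.69 over the 12 ligands, with a median of 1.16 and no call. In middle WT wells LPS gave 387.3 and 341.7 CPM, against 36.9 and 39.8 CPM at time 0, a log2 change of 3.43 (SE 0.61, 95% interval 2.22 to 4.63, edgeR adjusted p = 5.12e-05). MDP/LPS gave 290.5 and 431.2 CPM (3.41), Zymosan 229 and 448 CPM (3.28), Pam3Cys 315.2 and 245.4 CPM (2.97) and R848 225.7 and 336.5 CPM (2.94). CpG at 135.7 and 297.9 CPM (2.59, edgeR adjusted p = 0.00818) and Poly(I:C) at 116.9 and 237.1 CPM (2.17, adjusted p = 0.0493) completed the 7 middle calls. All 14 sums of these ligands lay above both time 0 sums. Late wells were called again with LPS, at 338.8 and 334.4 CPM (3.46, SE 0.61, edgeR adjusted p = 1.6e-05), Zymosan, at 237.5 and 388.7 CPM (3.27), and MDP/LPS, at 251 and 320.6 CPM (3.24). Pam3Cys (258 and 206.7 CPM, 2.69), R848 (162.3 and 246.1 CPM, 2.55), Poly(I:C) (112.4 and 283.4 CPM, 2.55) and SeV (126.3 and 165.9 CPM, 2.23, edgeR adjusted p = 0.0148) were also called late. CpG had 56.1 and 175.3 CPM late and was not called (1.78, adjusted p = 0.111). FLA, MDP and HT-DNA late wells read 17.9 to 57.4 CPM, on both sides of the time 0 sums, and TDB read 94.1 and 98.0 CPM without a call. The middle calls of CpG and Poly(I:C) were not made against own time 0 wells (edgeR adjusted p = 0.389 and 0.0818).

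Single WT wells of Csf1 were highest at 2 h with LPS (400.9 and 476.9 CPM), Zymosan (304.7 and 629.4 CPM) and Pam3Cys (389.5 and 359.0 CPM), at 1.5 h with R848 (221.3 and 381.0 CPM) and at 4 h with Poly(I:C) (138.8 and 312.2 CPM) and SeV (152.4 and 262.1 CPM). The comparison of late with early wells, added after the data were seen, called Csf1 higher late for Poly(I:C) (log2 difference 2.40, edgeR adjusted p = 0.00681) and LPS (2.04, adjusted p = 0.0262) in WT. Over the 72 pairs of WT, 7 were called higher late than early (1.48% of all pairs) and 6 lower (0.601% of all pairs). KO had 1 pair called higher (1.31% of all pairs) and 2 called lower (0.468% of all pairs), the higher one being Csf1 with Zymosan (2.53, edgeR adjusted p = 0.0421), which was lost without each of the 4 plates.

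In KO wells Csf1 rose with LPS, MDP/LPS, Zymosan, Poly(I:C) and TDB. TDB had no call in WT, where its middle change was 1.91 (95% interval 0.73 to 3.09, edgeR unadjusted p = 0.00202). The late TDB changes were not called different, at 1.27 for KO minus WT (-0.36 to 2.90, edgeR unadjusted p = 0.126). Late TDB levels differed by 0.08 between KO and WT (-1.07 to 1.24). Late KO wells read 197.8 and 89.7 CPM with LPS, against 21.3 and 12.7 CPM at time 0 (log2 change 3.29, SE 0.63, 95% interval 2.06 to 4.53, edgeR adjusted p = 0.000102). This call was present without each of the 4 plates, with values from 3.05 to 3.43. MDP/LPS gave 137.2 and 60.8 CPM (2.78), TDB 74.9 and 132.4 CPM (2.62, adjusted p = 0.0147), Zymosan 66.2 and 87.0 CPM (2.35) and Poly(I:C) 91.1 and 50.5 CPM (2.21, adjusted p = 0.0094) by edgeR. All of these plates lay above both KO time 0 sums. The same 5 ligands were called in middle KO wells, from 2.40 for Zymosan to 3.00 for MDP/LPS. The late TDB call was lost without KO replicate 2 (1.81, adjusted p = 0.816) and without either WT plate, that of MDP/LPS without KO replicate 1 (2.53, adjusted p = 0.0748), that of Zymosan without KO replicate 2 (1.83, adjusted p = 0.296) and that of Poly(I:C) without either KO plate. Against own time 0 wells the late calls of TDB, Zymosan and Poly(I:C) were not made (edgeR adjusted p = 0.129, 0.273 and 0.124), and of the middle calls only that of MDP/LPS was. Late KO wells of Pam3Cys read 21.1 and 30.7 CPM, those of CpG 13.0 and 18.7 CPM and those of R848 21.6 and 3.18 CPM, levels around the KO time 0 sums and without a call.

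**Figure D2:**
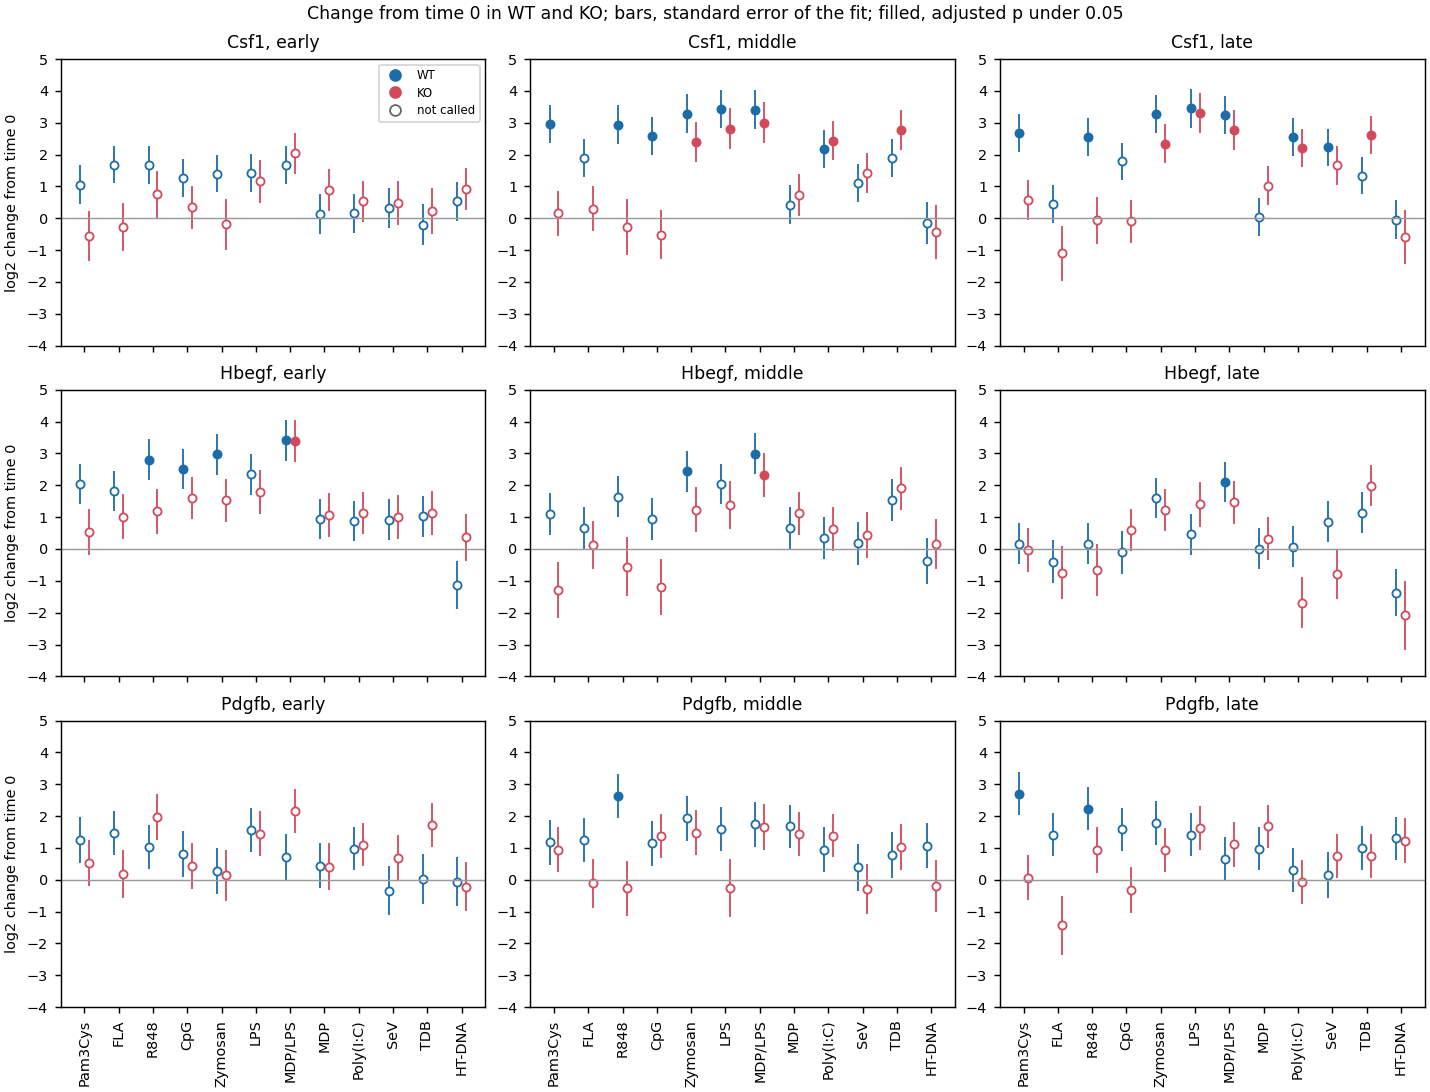
Log2 change from time 0 of Csf1, Hbegf and Pdgfb (rows) in early, middle and late wells (columns) for each ligand, WT in blue and KO in red. Bars are the standard error derived from the F statistic of the test, and filled points have an edgeR adjusted p under 0.05. Late Csf1 changes of LPS were 3.46 in WT and 3.29 in KO, and the filled Pdgfb points are those of Pam3Cys and R848 in WT.

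Averaged over ligands that share a class, the late Csf1 change was 2.34 for Pam3Cys, R848 and CpG in WT (SE 0.53, edgeR adjusted p = 0.00155), 3.35 for LPS and MDP/LPS (SE 0.57, adjusted p = 6e-06) and 2.39 for Poly(I:C) and SeV (SE 0.54, adjusted p = 0.00163). In KO the mean of LPS and MDP/LPS was 3.04 (SE 0.58, adjusted p = 8.21e-05) and that of Poly(I:C) and SeV 1.94 (SE 0.55, adjusted p = 0.0155), the latter lost without each of the 4 plates. Of 18 pairs of member and class, 6 were called higher in WT (3.79% of all pairs) and 4 in KO (2.79% of all pairs). The other calls were Edn1 in WT for Pam3Cys, R848 and CpG and for LPS with MDP/LPS, Pdgfb in WT for Pam3Cys, R848 and CpG, and Edn1 in KO for LPS with MDP/LPS and for Poly(I:C) with SeV. Without WT replicate 1 only 2 of these 10 calls were made, and without WT replicate 2 only 3. The difference between genotypes of the class change called 0 of 18 pairs (0.338% of all pairs lower in KO); 4 had an unadjusted p under 0.05 in edgeR, 3 of them lower in KO and 1 higher, and DESeq2 gave Csf1 an adjusted p of 0.0629 for Pam3Cys, R848 and CpG. For Csf1 and the class of Pam3Cys, R848 and CpG this difference was -2.20 (SE 0.71, 95% interval -3.60 to -0.80, unadjusted p = 0.00259, edgeR adjusted p = 0.134). The higher one was Edn1 for Poly(I:C) and SeV, at 3.48 (SE 1.17, 95% interval 1.18 to 5.79, unadjusted p = 0.00404, edgeR adjusted p = 1), a value that rests on the few Edn1 counts of KO wells.

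Edn1, the endothelin-1 precursor gene on chromosome 13 from 42301476 to 42307990 on the plus strand (mm10), had the largest called change of the members in WT. Late WT wells read 1020 and 1184 CPM with MDP/LPS, against 19.2 and 35.0 CPM at time 0, a log2 change of 5.68 (SE 0.74, 95% interval 4.22 to 7.14, edgeR adjusted p = 2.64e-08). LPS gave 706.1 and 675.3 CPM (4.99, adjusted p = 3.54e-07), Zymosan 570.9 and 570.2 CPM (4.64, adjusted p = 1.97e-06), R848 300.5 and 334.8 CPM (3.69, adjusted p = 0.00016) and CpG 84.2 and 359.3 CPM (3.21, adjusted p = 0.00125) by the same edgeR test. Both plates of each of these 5 ligands lay above both time 0 sums, and the plates of CpG were far apart. Pam3Cys gave 108.9 and 111.9 CPM, a change of 2.12 that missed the threshold (edgeR adjusted p = 0.0618) and was called with plate as a block (adjusted p = 0.0345). FLA, Poly(I:C), MDP, TDB, SeV and HT-DNA left late WT wells at 10.6 to 46.3 CPM. In counts pooled over plates, the ratio to time 0 was 43.4 for MDP/LPS (exact 95% counting interval 37.6 to 50.3), 27.3 for LPS, 22.5 for Zymosan, 12.5 for R848, 9.88 for CpG and 4.35 for Pam3Cys. Late Edn1 was lower with Pam3Cys than with LPS in WT (log2 difference -2.87, SE 0.65, edgeR adjusted p = 0.00407), the single member called among 6 in that comparison, where 1.62% of all genes were called lower; for R848 against LPS the difference was -1.30 (95% interval -2.52 to -0.09, adjusted p = 0.637). Both comparisons were added after the data were seen, and the Pam3Cys call was lost without either WT plate. The late CpG change was 2.07 against own time 0 wells and was not called (edgeR adjusted p = 0.402).

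The Edn1 rise came late. In early WT wells no ligand was called, with 39.9 CPM pooled over plates for LPS and 43.7 CPM for MDP/LPS. Middle wells were called for MDP/LPS (335.5 and 492.8 CPM, 4.11), LPS (261 and 341.7 CPM, 3.66) and Zymosan (166.8 and 89.6 CPM, 2.40, edgeR adjusted p = 0.0347; DESeq2 adjusted p = 0.069; 0.168 against own time 0 wells). Late wells were above early wells for Zymosan (log2 difference 4.99), MDP/LPS (4.86), LPS (4.28), CpG (2.92) and R848 (2.80), each called in edgeR and each lost without either WT plate. Single wells were highest at 3 h with MDP/LPS (1163 and 1388 CPM) and at 4 h with LPS (946 and 908.4 CPM), Zymosan (761.4 and 945.3 CPM) and R848 (417.6 and 398.7 CPM). Leaving out a WT plate cost the late calls: the LPS change was 4.56 without WT replicate 1 (adjusted p = 0.191) and 5.58 without WT replicate 2 (adjusted p = 0.0685), and that of MDP/LPS 5.45 (adjusted p = 0.0807) and 6.12 (adjusted p = 0.0508).

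**Figure D3:**
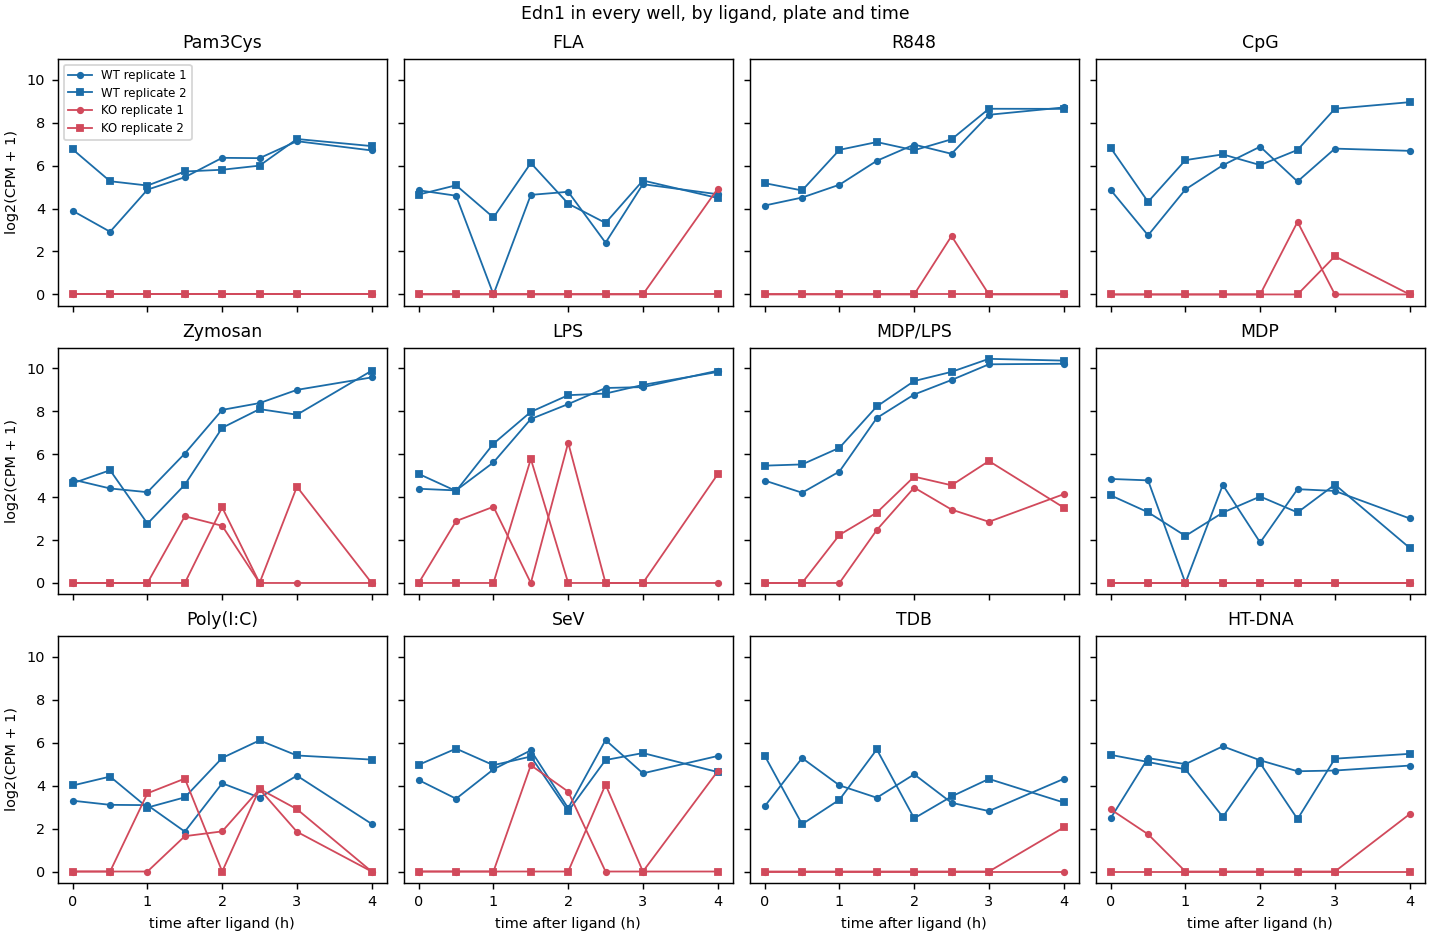
Edn1 as log2(CPM + 1) in every well against time after ligand (h), 1 panel per ligand, WT in blue, KO in red, circles for replicate 1 and squares for replicate 2. WT wells climbed with LPS, MDP/LPS, Zymosan, R848 and CpG, and most KO wells were at 0: 40 of 192 KO wells had an Edn1 count, against 190 of 192 WT wells.

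KO wells held 175 Edn1 counts in all, against 9491 in WT, and each KO change from time 0 is read against 3 counts. Middle KO wells of LPS had 27 counts (49.3 and 28.7 CPM), a ratio to time 0 of 112 with an exact 95% counting interval of 34.5 to 577; edgeR called it (adjusted p = 3.59e-05), also without each of the 4 plates. At 2 h the KO wells of LPS held 17 counts in replicate 1 and 0 in replicate 2, whose middle counts thus all came from its 1.5 h well. Late KO wells of MDP/LPS also had 27 counts (11.7 and 29.6 CPM, with 1 and 12 counts at 3 h, ratio 56.3, 17.3 to 290), those of SeV 19 (12.7 and 3.70 CPM, ratio 24.2, 7.12 to 128) and those of Poly(I:C) 16 (4.26 and 6.84 CPM, ratio 15.1, 4.33 to 81.0). These 3, with adjusted p of 0.000201, 0.0111 and 0.0413 in edgeR, and MDP/LPS in middle wells with 13 counts (ratio 44.4, 12.2 to 243), were the other KO calls. Both MDP/LPS calls were lost without KO replicate 2, the middle one and SeV also without either WT plate, SeV without KO replicate 1 and Poly(I:C) without each plate. None of these 5 KO calls was made in edgeR against own time 0 wells (adjusted p from 0.0509 to 0.343). R848 had 0 counts in middle and 2 in late KO wells, and late LPS wells read 0 and 10.2 CPM.

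The level of Edn1 was called lower in KO than in WT for 3 ligands early (0.647% of all gene and ligand pairs), 7 in middle wells (1.15% of all pairs) and 6 late (1.76% of all pairs), and the 6 late calls were present without each of the 4 plates. The WT to KO ratio of pooled late counts was 56.4 for MDP/LPS (exact 95% counting interval 38.7 to 85.8), 143 for LPS (65.5 to 390), 140 for CpG (54.3 to 515) and 233 for R848 (64.3 to 1930). Zymosan had 1219 WT counts against 8 KO counts, a ratio with an interval of 74.9 to 344. Pam3Cys wells had 0 KO counts late, and WT was at least 82.3-fold higher when KO is set to the floor of 3 counts over its 2 plates. For SeV the ratio was 4.40 (2.64 to 7.68) and for Poly(I:C) 5.66 (3.31 to 10.3), without a call in edgeR. These ratios stand beside the time 0 ratio of 73.1, which had a counting interval of 24.7 to 357.

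Pdgfb, the gene of a platelet-derived growth factor chain on chromosome 15 from 79995874 to 80014977 on the minus strand (mm10), rose with Pam3Cys and R848 in WT. Late WT wells of Pam3Cys read 62.0 and 64.1 CPM, against 7.55 and 12.9 CPM at time 0 (log2 change 2.71, SE 0.68, 95% interval 1.36 to 4.05, edgeR adjusted p = 0.00786). R848 gave 57.6 and 64.6 CPM in middle wells (2.63, adjusted p = 0.0246) and 49.1 and 39.1 CPM in late wells (2.23, adjusted p = 0.0458). All 6 of these sums lay above both time 0 sums. LPS gave 28.5 and 15.1 CPM late and MDP/LPS 12.4 and 13.0 CPM, neither called; Zymosan (22.5 and 37.4 CPM, 1.78, adjusted p = 0.148) and CpG (17.4 and 36.5 CPM, 1.58, adjusted p = 0.365) were not called either. Over Pam3Cys, R848 and CpG the late WT change was 2.17 (SE 0.60, edgeR adjusted p = 0.0138), and in KO it was 0.23. Late KO wells read 6.41 and 14.0 CPM with Pam3Cys and 14.7 and 22.2 CPM with R848. The difference between genotypes of the Pam3Cys change was -2.64 (95% interval -4.55 to -0.72) with an edgeR adjusted p of 0.409. The late Pam3Cys call was lost without WT replicate 1 (2.38, adjusted p = 1) and without WT replicate 2 (3.11, adjusted p = 0.787). Against own time 0 wells none of the 3 Pdgfb calls was made in edgeR (Pam3Cys 1.92, adjusted p = 0.587; R848 3.96 in middle and 3.57 in late wells, adjusted p = 0.0504 and 0.0547).

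Vegfa, on chromosome 17 from 46016993 to 46032369 on the minus strand (mm10), is the endothelial growth factor of the group. No change of it from the summed time 0 wells was called in either genotype in edgeR. Early WT wells read 159.8 and 151.8 CPM with LPS and 149.9 and 175.8 CPM with Zymosan, above the time 0 sums of 108.7 and 75.8 CPM, with log2 changes of 0.88 and 0.87 (adjusted p = 1 for both). Late WT wells of LPS read 37.7 and 35.6 CPM, below both time 0 sums, with a change of -1.0 (95% interval -1.83 to -0.17, edgeR adjusted p = 0.185); against own time 0 wells it was -1.53 and was called (adjusted p = 0.0497). Between those times the difference was called: late wells were below early wells in WT for LPS (log2 difference -1.88, SE 0.43, edgeR adjusted p = 0.00152), MDP/LPS (-1.55), Zymosan (-1.54) and Poly(I:C) (-1.41), and in KO for Poly(I:C) (-1.52, adjusted p = 0.012). These 5 are, with 2 pairs of WT Hbegf (R848 at -2.64 and CpG at -2.60) and 1 of KO Hbegf (Poly(I:C) at -2.81), all the pairs called lower late than early. The LPS difference was -1.91 without WT replicate 1 (adjusted p = 0.42) and -1.81 without WT replicate 2 (adjusted p = 0.436). Late wells of LPS in KO read 13.9 and 37.2 CPM, against 71.2 and 71.6 CPM at time 0 (-1.26, adjusted p = 0.114). Averaged over LPS and MDP/LPS, the late WT change was -0.953 and not called (edgeR adjusted p = 0.0678). Against own time 0 wells that average was -1.26 and was called (edgeR adjusted p = 0.00594). With MDP, TDB and HT-DNA late WT wells read 101.9 to 129.9 CPM.

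Csf2, on chromosome 11 from 54247271 to 54249667 on the minus strand (mm10), was sparse, with 239 counts in 72 of 192 WT wells and 42 counts in 14 of 192 KO wells. Pooled over ligands and plates, its WT level was 1.49 CPM at time 0 (exact 95% Poisson interval 0.768 to 2.6), 2.75 CPM early (2.03 to 3.65), 6.26 CPM in middle wells (5.1 to 7.61) and 2.89 CPM late (2.29 to 3.61). The middle interval overlapped none of the other WT intervals. In KO the same classes read 0.463, 1.0, 0.762 and 0.478 CPM, with overlapping intervals. Most of the 101 middle WT counts came from 4 ligands: 32 from MDP/LPS (29.5 and 21.6 CPM, ratio to time 0 of 17.3, exact 95% counting interval 8.67 to 36.9), 20 from Zymosan (15.8 and 12.5 CPM, ratio 9.75, 4.54 to 21.9), 18 from LPS (11.2 and 15.5 CPM, ratio 8.92, 4.07 to 20.3) and 16 from SeV (11.1 and 12.5 CPM, ratio 7.85, 3.48 to 18.2). None of them was called in edgeR, where MDP/LPS had an adjusted p of 0.249. KO middle wells held 8 counts with MDP/LPS (4.84 and 14.0 CPM, ratio 20.5, 5.48 to 92.9), and the WT to KO ratio there was 2.71 (1.22 to 6.81). Zymosan and SeV had 0 KO counts in middle wells.

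Csf3 (chromosome 11, 98701263 to 98703629, plus strand, mm10) had 15 counts, all in WT, in 8 wells: 1 early, 5 in middle and 9 in late wells, and 0 at time 0. The 5 middle counts were all from MDP/LPS. With 0 counts in 192 KO wells, its KO level had an upper 95% bound of 0.16 CPM late and 0.256 CPM in middle wells, and the WT intervals (0.153 to 0.633 CPM late, 0.101 to 0.724 CPM in middle wells) overlapped those bounds. Lif (chromosome 11, 4257557 to 4272514, plus strand, mm10) had 30 counts in 13 WT wells and 2 counts in 1 KO well. Of these, 11 came from LPS in middle WT wells, with 2 and 9 in the 1.5 h wells of replicates 1 and 2. Against 5 counts at time 0, the ratio was 13.1 with a counting interval of 4.19 to 48.0. That interval covers counting error only and not the spread between these wells. Differences between genotypes in these genes were not tested, since they failed the filter.

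**Figure D4:**
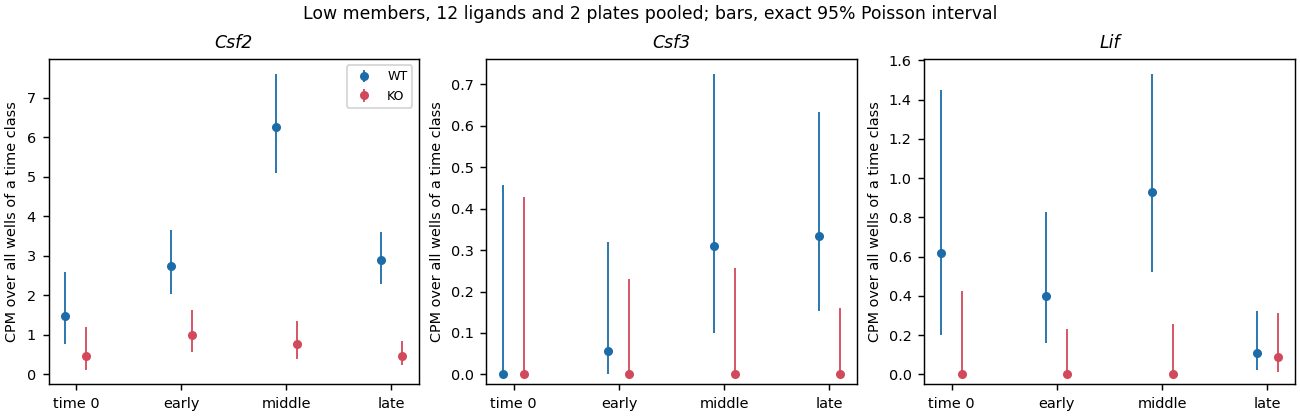
CPM of Csf2, Csf3 and Lif over all wells of a time class, 12 ligands and 2 plates pooled, WT in blue and KO in red; bars are exact 95% Poisson intervals. The middle WT point of Csf2 stands at 6.26 CPM and its KO point at 0.762 CPM.

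The genotype comparison asks which changes or levels differ between WT and Myd88 KO plates, and it was made in 2 ways. In both, genotype cannot be told apart from culture or handling that the plates of a genotype share. The test of the difference of the changes (KO change minus WT change) recovered 10% of 4-fold and 48% of 8-fold differences in simulated late LPS wells. The simulation changed only genes above a minimum WT level at time 0 and gave all genes 1 dispersion. Recovery for Csf2, below that level, and for Edn1, with 3 KO counts at time 0, may differ. This test called 0 of 72 member pairs early, in middle wells and late, where 0.0221%, 0.0426% and 0.129% of all pairs were called lower in KO. Unadjusted p-values under 0.05 in edgeR numbered 2, 9 and 7, and DESeq2 also called 0, 0 and 0. They went in both directions: those of Csf1, Hbegf and Pdgfb were lower in KO, and those of Edn1 were higher. The Edn1 difference was 3.96 early for Poly(I:C), 4.46 in middle wells for SeV (95% interval 1.63 to 7.29, unadjusted p = 0.00282), 4.28 for Poly(I:C) and 2.79 for LPS, and 3.65 late for SeV and 3.32 for Poly(I:C), each with an edgeR adjusted p of 1 and each set against the 3 KO counts at time 0. For Csf1 in middle wells the difference was -3.23 for R848 (SE 1.02, 95% interval -5.25 to -1.21, edgeR adjusted p = 0.365) and -3.11 for CpG (-4.99 to -1.22, adjusted p = 0.307). The level in KO against WT, a comparison added after the data were seen that also holds the time 0 difference, called 7 of 72 pairs lower in KO early (0.647% of all pairs), 15 in middle wells (1.15% of all pairs) and 13 late (1.76% of all pairs). Leaving out WT replicate 1 or 2 gave 0 and 0 calls early, 4 and 4 in middle wells and 9 and 8 late. Late Csf1 was lower in KO with R848 (-3.80, edgeR adjusted p = 8.77e-05), Pam3Cys (-3.31, adjusted p = 0.000115), CpG (-3.07, adjusted p = 0.000834), FLA (-2.74, adjusted p = 0.046) and Zymosan (-2.12, adjusted p = 0.0389). The R848 and Pam3Cys calls were present without each of the 4 plates, CpG was lost without WT replicate 2 (-2.04, adjusted p = 0.345), and FLA and Zymosan were lost without each plate. With LPS the late Csf1 difference was -1.35 (95% interval -2.49 to -0.21, adjusted p = 0.318). Pdgfb was lower in KO late with Pam3Cys (-2.76, edgeR adjusted p = 0.00614) and FLA (28.7 and 23.0 CPM in WT, 7.5 and 1.07 CPM in KO, -2.97, adjusted p = 0.0439). Hbegf was lower in KO in middle wells with Pam3Cys (-3.28), R848 (-3.11) and CpG (-3.06), and early with R848 (-2.53, adjusted p = 0.0411) and Pam3Cys (-2.44, adjusted p = 0.0444), the last of which turned to 0.20 without WT replicate 1. These Hbegf and Pdgfb calls were lost without either WT plate. Neither Vegfa nor Csf2 was called in any of these 3 time classes in edgeR.

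**Figure D5:**
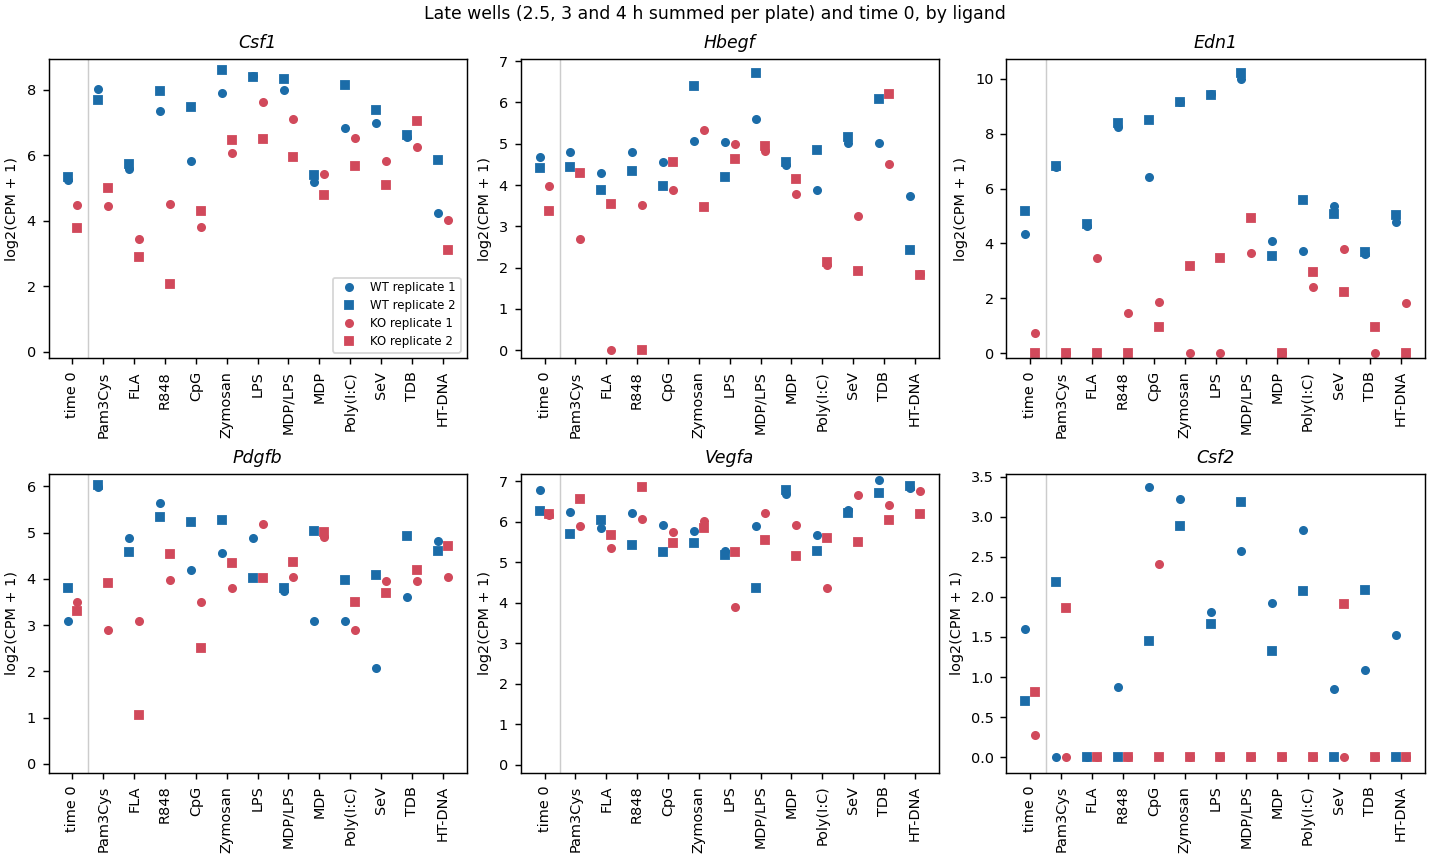
Level as log2(CPM + 1) of Csf1, Hbegf, Edn1, Pdgfb, Vegfa and Csf2 at time 0 and in late wells of each ligand, WT in blue, KO in red, circles for replicate 1 and squares for replicate 2. Edn1 was called lower in KO by edgeR at time 0 and, in late wells, for LPS, MDP/LPS, Zymosan, R848, CpG and Pam3Cys. The Csf1 points of LPS lie at 338.8 and 334.4 CPM in WT and 197.8 and 89.7 CPM in KO.

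The receptors of the members were listed as 17 genes, of which 12 were tested. Late, 13 of 144 WT pairs of receptor and ligand were called higher (2.09% of all pairs) and 8 lower (0.688% of all pairs). In KO 4 were called higher (1.58% of all pairs) and 5 lower (0.593% of all pairs). The lower WT calls were all Nrp1, a co-receptor of VEGFA: with LPS it read 469.3 and 395.9 CPM against 1751 and 1405 CPM at time 0 (-1.54, SE 0.24, edgeR adjusted p = 2.97e-07), and in KO 465.1 and 509.2 CPM against 1387 and 1596 CPM (-1.38). Its relative Nrp2 rose in WT with LPS (1.41) and Pam3Cys, where it read 803.2 and 851.6 CPM against 312.8 and 318.5 CPM (1.49), and in KO with LPS (1.23). With Pam3Cys KO wells stood at 237.9 and 237.6 CPM against 251 and 209.7 CPM, and the genotypes' changes differed by -1.47 (SE 0.37, edgeR adjusted p = 0.0283), a difference not called without WT replicate 1, WT replicate 2 or KO replicate 1, nor against own time 0 wells (-1.63, adjusted p = 0.153). Ednrb, a receptor of endothelins, rose in WT with Zymosan (2.73, edgeR adjusted p = 0.000277) and with Pam3Cys, from 30.4 and 27.5 CPM to 117.3 and 124 CPM (2.15). Csf2rb, the shared beta chain of the CSF2 receptor, rose with Pam3Cys (1.11). The Nrp1 calls for LPS were present without each of the 4 plates, while the WT calls of Nrp2, Ednrb and Csf2rb with Pam3Cys and of Ednrb with Zymosan were lost without either WT plate.

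Of 17 genes whose products cut, shed or bind the members, 14 were tested, and late 29 of 168 WT pairs (2.09% of all pairs) and 16 of 168 KO pairs (1.58% of all pairs) were called higher and 0 lower (0.688% and 0.593% of all pairs). Sdc4, a heparan sulfate proteoglycan that binds heparin-binding growth factors, read 9392 and 7731 CPM with LPS in late WT wells against 1978 and 2049 CPM at time 0 (2.41), and 2718 and 2504 CPM in KO against 828 and 945.6 CPM (1.79). It was lower in KO at time 0 (-1.21, edgeR adjusted p = 0.00353), and its change was smaller in KO with Pam3Cys (-1.88, adjusted p = 0.000473) and CpG (-1.69, adjusted p = 0.00308). Mmp14, a membrane protease, read 795.6 and 660.2 CPM with LPS in WT against 39.0 and 71.4 CPM (4.04), and 350.8 and 238.5 CPM in KO against 9.38 and 12.2 CPM (4.99). With Pam3Cys it read 587.1 and 593.6 CPM in WT (3.51) and 10.1 and 14.0 CPM in KO, and the changes differed by -3.38 (edgeR adjusted p = 0.0152), with -3.44 for R848 and -3.05 for CpG. Without either WT plate none of these differences between genotypes in Sdc4 and Mmp14 was called. Against own time 0 wells the Mmp14 difference for Pam3Cys turned to 3.80 (edgeR adjusted p = 0.892), and the other 4 were not called either (R848 -2.91 and CpG -3.06 for Mmp14, Pam3Cys -1.11 and CpG -0.81 for Sdc4). Cd44, another binding protein, rose with LPS in WT (1.74) and KO (1.02), and Adam17, the protease that sheds HBEGF, rose with Pam3Cys in WT (1.29). Of 30 other growth factor genes 16 were tested: 4 of 192 late WT pairs were called higher (2.09% of all pairs) and 5 lower (0.688% of all pairs), and in KO 1 higher (1.58% of all pairs), Gdf15, and 2 lower (0.593% of all pairs), both Bmp2. The share called higher was close to that of all pairs in WT. Pdgfa rose with Zymosan (1.54), while Bmp2 fell with R848 (-4.32, edgeR adjusted p = 2.73e-05) and Igf1 with Zymosan (-0.70, adjusted p = 0.0263). Inhba, with a change of 4.02 for LPS, had an adjusted p of 0.15. The LPS calls of Sdc4, Mmp14 and Cd44 in both genotypes were present without each of the 4 plates, those of Adam17, Pdgfa and Igf1 were lost without either WT plate, and that of Bmp2 without WT replicate 2.

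Over the 74 group means, the genes whose log2 CPM followed a member most closely were, for Edn1, Sdc4 (Pearson r = 0.923), Marcks (0.914) and Saa3 (0.913). For Csf1 they were Slfn2 (0.925), Tnfaip2 (0.922) and Sdc4 (0.896), and for Hbegf Kdm6b (0.765), Junb (0.749) and Phlda1 (0.744). Vegfa was followed by Osbpl8 (0.701), Wwp1 (0.667) and Cd36 (0.661), Pdgfb by Zfp263 (0.568), Ets2 (0.564) and Pnrc1 (0.559), and the sparse Csf2 by Gm14023 (0.73), Tnfsf9 (0.666) and Errfi1 (0.664). Among the members, Csf1 and Edn1 had an r of 0.807, Csf1 and Hbegf 0.619, Csf2 and Edn1 0.573 and Csf1 and Vegfa -0.157. The groups share plates and time 0 wells, and these coefficients describe the 74 groups without a test.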

How the data were processed

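Counts per gene and well were deposited by the authors in 1 table of 23481 genes and 384 wells, from a modified SCRB-Seq library of transcript 3′ ends, per the labels' protocols. BWA and the build mm10 are named in the submitters' processing notes. Not given in the sources used here are the annotation, the counting program and the treatment of strand and molecular tags, so that reads of overlapping genes cannot be told apart. The table held 0 columns of other samples and 0 identical wells, and Rn45s took 7.52% to 9.37% of the counts of a plate. Wells were grouped by their labels and summed per plate into 148 sums of 74 groups; time 0 sums held 3167670 to 4901235 counts, early sums 207297 to 1048987, middle sums 198344 to 1028058 and late sums 314684 to 1876446, which sets the precision of each value.

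The sums were tested with edgeR 4.0.16 in R 4.3.3 (filterByExpr with a minimum count of 10, TMM, robust quasi-likelihood fit over all groups), with Benjamini-Hochberg adjustment over 10562 genes within each comparison and a threshold of 0.05. Each SE is the absolute log2 change divided by the square root of the F statistic of the test. It is unstable where F is near 0. Intervals of log2 changes use this SE and 130 degrees of freedom. Few counts are given as ratios with exact 95% intervals, or against a floor of 3 counts over a group; both cover counting error only. The script was tested on simulated late LPS wells with changes in WT alone. Changed genes were drawn from those above a minimum WT level at time 0, and all genes had 1 dispersion of 0.156. Against time 0, 32% of 4-fold, 98% of 8-fold and 100% of 16-fold changes were recovered. As differences between genotypes, 10%, 48% and 68% were recovered, so a difference without a call may still be present. The members and gene lists were chosen with earlier results of these data known. Genes named are all members, up to 4 of each list with the smallest p in a late WT comparison, and the 3 genes nearest each tested member by Pearson r of log2 CPM (prior count 1). Gdf15 is outside this rule and was named after its value was seen. The comparisons of KO with WT levels, of late with early wells and of ligands with each other were added after the data were seen. The labels name each plate, so plate marks shared handling and was fitted as a block within each genotype. For KO against WT levels the block was the replicate number, since no plate held both genotypes. Deviations of the groups of 1 plate had a median correlation of 0.012 in WT and 0.016 in KO over 666 pairs. Other alternatives were median-ratio scaling, no filter, DESeq2 1.42.0, each plate left out, wells in place of sums, no Rn45s, no wells under 150000 counts, and each ligand's own time 0 wells. Motifs and sequences were read from RefSeq promoters (GRCm38.p6) and GENCODE transcripts of mm10, and positions from the GENCODE annotation, matched by symbol.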

Additional observations from a re-analysis of the deposited data

Results flagged for a closer look

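No member met a criterion for a closer look, and 6 values of the listed partner genes did, because the late change from time 0 differed between genotypes by edgeR's test of the difference itself. For Mmp14, a membrane protease, the KO change minus the WT change was -3.38 with Pam3Cys, -3.44 with R848 and -3.05 with CpG. Sdc4, a heparan sulfate proteoglycan, differed by -1.88 with Pam3Cys and -1.69 with CpG, and Nrp2, a co-receptor of VEGFA, by -1.47 with Pam3Cys. All 6 were lost without WT replicate 1, without WT replicate 2 and against each ligand's own time 0 wells, where the Mmp14 difference for Pam3Cys turned to 3.80 (edgeR adjusted p = 0.892). Those of Mmp14 were also lost without KO replicate 2, those with Pam3Cys and R848 without KO replicate 1 as well, and Nrp2 was lost without KO replicate 1. Sdc4 and Mmp14 were also lower in KO at time 0, by -1.21 and -2.37 on the log2 scale, and the part of that difference in these values was not tested.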

How the results depend on the processing

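Of 139 called values, 6 were lost with median-ratio scaling, 3 without a filter, 1 with DESeq2, 2 with wells as replicates, 1 without Rn45s and 5 without shallow wells, against 104 and 103 when WT replicate 1 or 2 was left out and 24 and 29 when KO replicate 1 or 2 was left out. Without a WT plate every WT group is 1 sum, assumed to vary like the KO groups, so that its standard errors grow. With each ligand's own time 0 wells 50 of 136 were lost and 1 turned. Of the values without a call, 17 of 29 were called with wells as replicates, 8 of 32 without a filter and 8 of 32 without either KO plate.

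With 1 plate left out in turn, the calls ranged from 0 to 1 at time 0, 0 to 7 early, 0 to 17 in middle and 0 to 19 in late WT wells, and 1 to 3, 1 to 6 and 3 to 5 in KO. Calls of a smaller change in KO ranged from 0 to 1 early and were 0 in the other classes, class pairs from 2 to 10, lower KO levels from 0 to 6, 4 to 14 and 8 to 14, and late against early WT wells from 0 to 11 in both directions. Without the filter the calls were 9 early in WT (4 as reported), 2 early in KO (1), 3 and 2 for a smaller change in KO in middle and late wells (0 and 0), 19 and 24 for lower KO levels early and late (7 and 13) and 13 higher late than early (7). With wells as replicates they were 2 at time 0, 10 early in WT, 3 early in KO, 3 and 3 for a smaller change in KO in middle and late wells, 17 class pairs (10), and 11 and 20 for lower KO levels early and late. Own time 0 wells gave 1 early and 8 middle calls in WT (13 as reported), 1 middle and 2 late calls in KO (8 and 8), and DESeq2 gave 14 lower KO levels early. Own time 0 wells gave 3 pairs lower late than early (6).

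Without WT replicate 1 the early Pam3Cys change of Hbegf turned to -0.48 (adjusted p = 0.943) and its KO against WT level to 0.20 (adjusted p = 0.995); over the left-out plates these ran from -0.48 to 2.63 and from -3.23 to 0.20. With own time 0 wells the Mmp14 difference for Pam3Cys turned to 3.80. With plate as a replicate block, all 139 called values were kept. Of the values given in the text, 1 was added, the late WT Pam3Cys change of Edn1 (edgeR adjusted p = 0.0345). Each plate held 1 genotype, so for KO against WT levels the block was the replicate number, taken across genotypes. A difference between the plates of WT and those of KO cannot be removed there. The counts with the block were 4, 13 and 16 in WT, 1, 8 and 8 in KO, 8 for lower KO levels early and 8 for WT pairs higher late than early, each within 1 of the reported count. The cause of the other changes was not tested. Depth limits Csf2, Csf3, Lif and KO Edn1, whose groups often held under 10 counts.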
